A study of Mus musculus with 64 samples.

Results

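Adult neurogenesis in the hippocampus was examined through 8 genes of immature neurons and neuroblasts, Dcx, Eomes, Neurod1, Sox11, Sox4, Igfbpl1, Calb2 and Draxin. They were chosen by name, with earlier results of these data known. Their rows in the hippocampal count tables are those whose gene identifier belongs to one of these symbols. All 8 were found among the 55414 genes of the acute table and the 55573 genes of the continuous table. After removal of genes with low counts, 8 of them were among the 14611 genes tested after acute exposure and 7 among the 14949 genes tested after continuous exposure. Eomes was the gene left untested in the continuous cohort.

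Wild-type (WT) mice were compared with Angelman syndrome (AS) mice, which are Ube3a m-/p+ and carry a Ube3a deletion of exon 5 inherited from the mother, Ube3a encoding a ubiquitin ligase. All mice were male F1 hybrids of C57BL/6J and 129sv parents, 10 to 18 weeks old, and each library came from the left hippocampus of 1 mouse. In the acute cohort, 6 mice in each of 4 groups (WT vehicle, WT CORT, AS vehicle and AS CORT) received a subcutaneous dose of corticosterone (CORT, 3 mg/kg), the main glucocorticoid of rodents, or its vehicle, and hippocampi were collected 3 h later. In the continuous cohort, 5 mice in each of the same 4 groups carried an implanted pellet, without or with 20 mg CORT, for 5 days, and their livers were sequenced as well. The deletion is present in every cell of AS mice, whereas the paternal Ube3a allele is silenced mainly in neurons, so other cells keep an active copy.

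New granule neurons are added to the dentate gyrus throughout adult life. Neural stem cells give rise to dividing intermediate progenitors that express the transcription factor Eomes (also called Tbr2), followed by neuroblasts with Neurod1, a factor needed for the survival of newborn granule neurons. Post-mitotic immature neurons then express Dcx, which encodes the microtubule-binding protein doublecortin, together with the SoxC factors Sox4 and Sox11, and pass through a short stage with Calb2 (calretinin). Glucocorticoids are known to reduce the proliferation of these progenitors. None of the 8 genes is private to this lineage. Neurod1 is also made by mature granule neurons, Sox4 by glial and vascular cells, and Calb2 by mossy neurons and interneurons, and in bulk tissue fewer cells of a type and less RNA per cell cannot be told apart.

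Libraries held 19049461 to 21052967 counts on genes in the acute cohort and 19112929 to 21783009 in the continuous hippocampus. Levels are given as CPM, counts scaled to library size after TMM normalization, and 3 counts corresponded to 0.133 to 0.160 CPM, a floor that covers counting error only. Fkbp5, a target of the glucocorticoid receptor, rose with CORT by 0.96 ± 0.04 (SE) on the log2 scale in the acute cohort and by 0.81 ± 0.08 in the continuous cohort, averaged over genotypes (adjusted p = 4.79e-14 and 1.19e-06). Tsc22d3, another such target, rose by 0.92 ± 0.06 and 0.66 ± 0.09. Ube3a counts ranged from 52.5 to 84.7 CPM in WT and from 64.1 to 82.0 CPM in AS mice of the acute cohort. A count over the whole gene does not show the loss of 1 exon on 1 allele, so these counts do not check the genotype, which is taken from the labels. In the acute cohort, all 6 AS CORT libraries and 2 AS vehicle libraries, but 0 WT libraries, had a higher number of reads set aside for low alignment quality (2640 to 2850, against 1877 to 2237 in the other 16). Among CORT mice this division and genotype cannot be told apart. In AS mice the division also largely coincides with treatment. The continuous hippocampal libraries H9 and H13 were left out of the fits, as in the study. H13 (WT vehicle) held 13074 CPM of 6 choroid plexus markers and 3176 CPM of 6 striatum markers, and H9 (AS vehicle) held 1637 CPM of 6 thalamus markers, against at most 2901, 238 and 194 CPM in the other libraries of this cohort.

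Sox4 was lower after CORT in both cohorts and was the member that passed the test in each. It encodes a SoxC transcription factor that promotes the neuronal programme in newborn cells, and lies at chr13:28948919-28953713 on the minus strand of GRCm38 as a gene with a single exon. Its promoter, from 250 bases before to 50 bases after the transcription start at chr13:28953650-28953949 (minus strand, RefSeq, GRCm38.p6), is shown because this gene passed the test in both cohorts. Capitals mark the 4 matches of CCAAT on either strand, the letters bound by the factor NF-Y.

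Sox4: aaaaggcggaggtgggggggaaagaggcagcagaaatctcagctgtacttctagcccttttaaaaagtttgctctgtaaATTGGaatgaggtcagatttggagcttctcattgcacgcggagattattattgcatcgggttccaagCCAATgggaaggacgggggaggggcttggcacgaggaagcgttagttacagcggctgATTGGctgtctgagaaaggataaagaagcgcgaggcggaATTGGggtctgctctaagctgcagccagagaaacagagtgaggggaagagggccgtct

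Promoters were found for 6 of the 8 genes, with 7 start sites in all. CCAAT, searched on both strands, was found in 5 of these 7 windows (Dcx, Eomes, Sox11 and Sox4) and in 37.4% of 32851 mouse promoters of the same length. AGAACA, which makes up one side of a glucocorticoid response element, was found on either strand in 0 of the 7 windows and in 19% of all promoters. The E-box CANNTG, the letters bound by factors of the Neurod1 type, was in 4 of the 7 windows and in 72.3% of all promoters. These matches describe letters in a short window and say nothing of binding elsewhere.

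After acute exposure, Sox4 ranged from 23.6 to 30.0 CPM with a median of 26.9 in WT vehicle mice, and from 20.3 to 25.5 CPM with a median of 23.1 in WT CORT mice. In AS mice it ranged from 20.8 to 31.0 CPM (median 23.7) with vehicle and from 18.9 to 23.5 CPM (median 21.02) with CORT. The ranges of vehicle and CORT mice overlapped in both genotypes, with the CORT groups shifted down. Averaged over genotypes, Sox4 fell by 0.22 ± 0.06 on the log2 scale, a decrease of 13.9% (adjusted p = 0.0237, n = 12 mice per treatment). This was 1 of 7 members past the threshold in this comparison (Eomes, which entered the acute test only through WT CORT mice, is left out of counts that involve CORT mice of this cohort), against 7.02% of all genes tested, and 3.5% of all genes were called lower. Taken alone, WT mice gave -0.21 ± 0.08 (adjusted p = 0.333) and AS mice -0.22 ± 0.08 (adjusted p = 0.0653), and the interaction, the AS response less the WT response, was -0.02 (95% interval -0.26 to 0.23, adjusted p = 0.955). The decrease passed the test without any 1 of the 24 mice (adjusted p 0.00725 to 0.0471). With a covariate for the division by low-quality reads it was -0.16 and did not pass (adjusted p = 0.377), and in AS mice it was -0.10 when only the 8 libraries with many such reads were compared.

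After continuous exposure, Sox4 was at 23.1, 16.6, 21.3 and 20.03 CPM in WT vehicle mice and at 15.7, 13.03, 14.7, 16.01 and 15.8 CPM in WT CORT mice. Every WT CORT mouse lay below every WT vehicle mouse, but the share of all genes tested with such a separation was not counted. In AS mice the values were 16.97, 24.8, 20.7 and 23.4 CPM with vehicle and 22.9, 16.9, 14.4, 22.5 and 18.4 CPM with CORT, and these ranges overlapped. Averaged over genotypes, Sox4 fell by 0.30 ± 0.09 on the log2 scale, which is 18.9% (adjusted p = 0.0473). The change was -0.43 ± 0.13 for WT (adjusted p = 0.101) and -0.18 ± 0.13 for AS mice (adjusted p = 0.598), and their difference was 0.25 (95% interval -0.14 to 0.64, adjusted p = 1). The averaged call was lost without any 1 of 14 of the 18 mice (adjusted p up to 0.112) and held without H2, H4, H7 or H16. Gm26735, a long non-coding RNA on the opposite strand that shares exon sequence with Sox4, reached at most 7 counts in a library of this cohort.

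**Figure D1:**
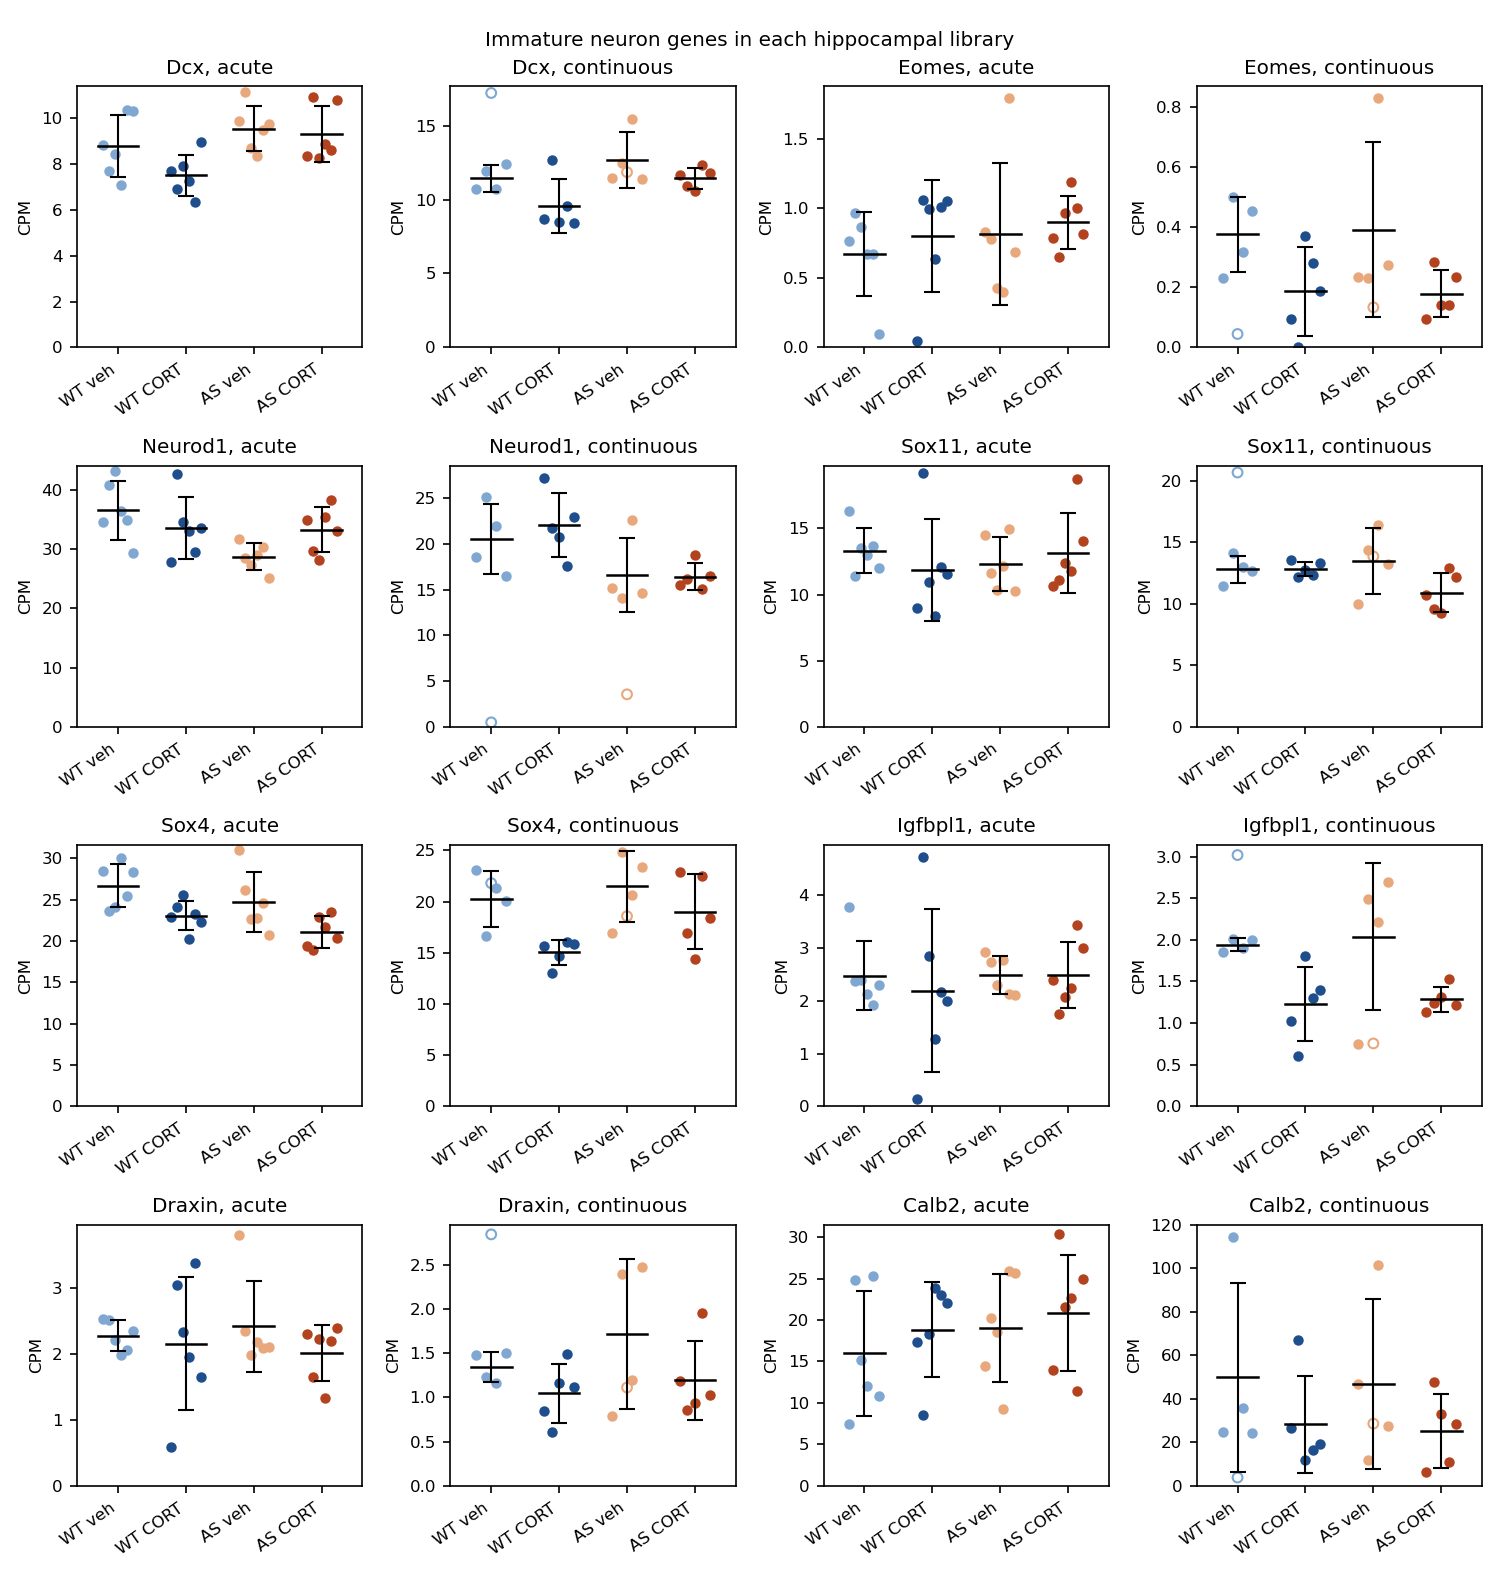
CPM of each of the 8 genes in every hippocampal library, by genotype and treatment, in the acute and the continuous cohort. Filled points are libraries in the fits, open points are H9 and H13, and lines with bars are means ± SD over filled points. Continuous WT CORT mice lie below WT vehicle mice for Sox4 and Igfbpl1, a separation not counted over all genes. Calb2 reaches 115 CPM in 1 continuous library.

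Igfbpl1 was the other member that passed after continuous exposure, and it did not pass after acute exposure. It encodes a secreted protein of the IGF-binding type and lies at chr4:45809468-45826923. Continuous-cohort levels were 1.85, 2.01, 1.91 and 1.999 CPM in WT vehicle mice and 1.03, 0.609, 1.81, 1.30 and 1.40 CPM in WT CORT mice. These groups did not overlap, a separation that was likewise not counted over all genes. AS vehicle mice had 0.746, 2.49, 2.21 and 2.70 CPM and AS CORT mice 1.14, 1.24, 1.31, 1.53 and 1.22 CPM. The lowest AS vehicle mouse, H2, lay below all AS CORT mice, whereas the other 3 lay above them. Averaged over genotypes, Igfbpl1 fell by 0.66 ± 0.20 on the log2 scale, or 36.7% (adjusted p = 0.0468). The estimates were alike for WT (-0.66 ± 0.29, adjusted p = 0.275) and AS mice (-0.66 ± 0.29, adjusted p = 0.266), with an interaction of -0.01 whose 95% interval ran from -0.88 to 0.86. The call rested on 13 to 59 counts per library and was lost without any 1 of 16 of the 18 mice (adjusted p up to 0.111), holding without H2 (adjusted p = 0.00202) or H12. After injection the change was -0.09 ± 0.23 (adjusted p = 0.860).

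Sox4 and Igfbpl1 were thus 2 of 7 members past the threshold for continuous CORT averaged over genotypes, both lower, against 9.67% of all genes in either direction and 5.48% called lower. Of the 7 members, 6 had an estimate below 0, with a median log2 fold change of -0.30, whereas 49.7% of all genes tested were below 0 and their median was 0.00088. After acute CORT, 5 of 7 members other than Eomes were below 0, with a median of -0.09, beside 49.9% and 0.0003 over all genes. The members were chosen with earlier results known, and some vary together between mice, as Igfbpl1 and Draxin do. These shares are therefore descriptions and no test of the list. Within genotypes, edgeR called 0 of 7 members in WT mice (background 2.92%) and 0 of 7 in AS mice (background 3.77%). At an unadjusted p under 0.05 these numbers were 3 and 2, DESeq2 called 1 and 0, and limma called 0 and 0. In the acute cohort edgeR called 0 of 7 members in WT mice (background 1.48%) and 0 of 7 in AS mice (background 17.9%), with 2 and 2 at an unadjusted p under 0.05, 0 and 1 by DESeq2, and 0 and 1 by limma.

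**Figure D2:**
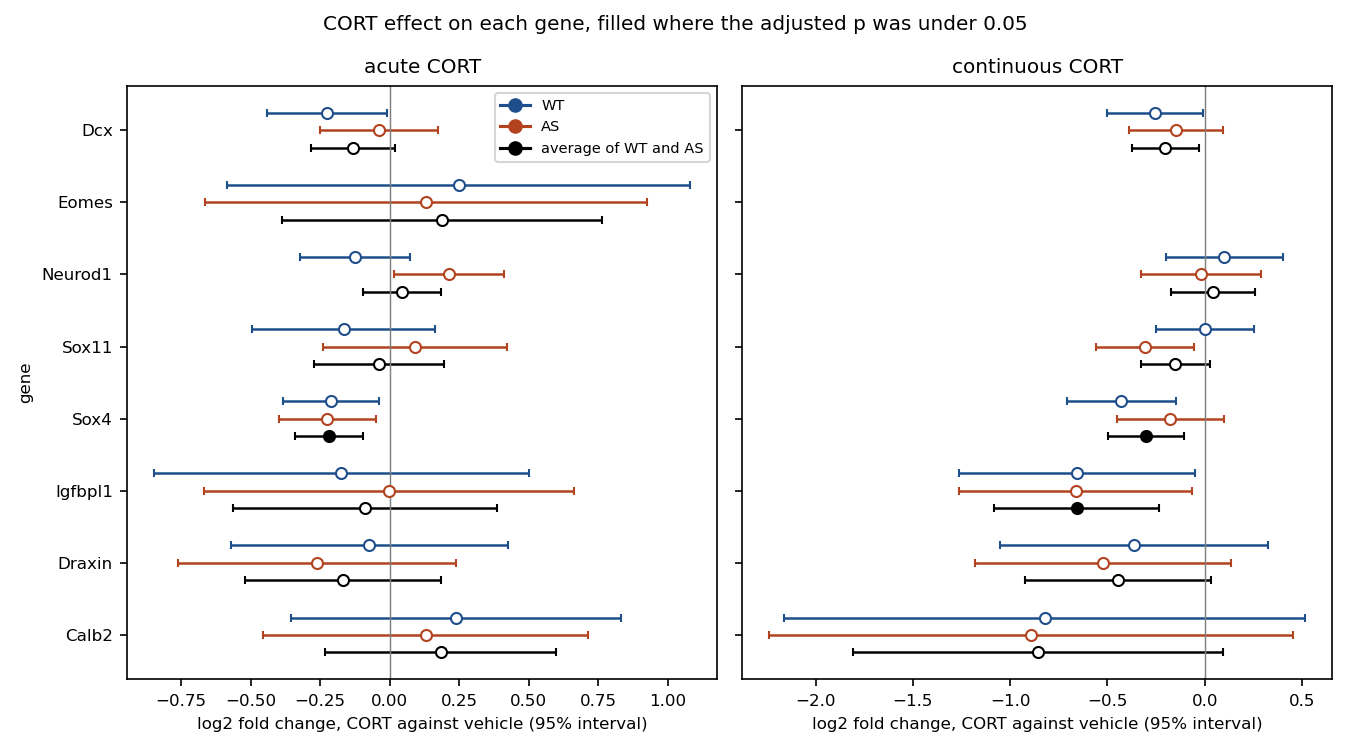
Log2 fold change of each gene for CORT against vehicle, with its 95% interval, in WT mice, AS mice and averaged over genotypes. Filled points passed the test at an adjusted p under 0.05, which were Sox4 in both cohorts and Igfbpl1 in the continuous cohort, all for the average. Eomes was not tested in the continuous cohort, and in the acute cohort it entered the test only through WT CORT mice.

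Dcx, the marker most used to count immature neurons, did not pass the edgeR test for CORT in either cohort and was higher in AS than in WT mice given acute CORT. It lies at chrX:143855842-143933311 on the minus strand. After injection it ranged from 7.09 to 10.4 CPM (median 8.65) in WT vehicle, 6.36 to 8.96 CPM (median 7.49) in WT CORT, 8.35 to 11.2 CPM (median 9.62) in AS vehicle and 8.27 to 10.9 CPM (median 8.75) in AS CORT mice. All 4 ranges overlapped. The CORT effect was -0.23 ± 0.11 for WT (adjusted p = 0.437) and -0.04 ± 0.10 for AS mice (adjusted p = 0.820). Between genotypes given acute CORT, Dcx was higher in AS mice by 0.31 ± 0.10 on the log2 scale, or 23.8% (adjusted p = 0.0333), as 1 of 7 members called, against 24.9% of all genes tested. This difference was 0.15 after correction for GC content and gene length (adjusted p = 0.243) and missed the threshold under limma (adjusted p = 0.0519), which called Igfbpl1 in its place. It was 0.30 without the filter on low counts (adjusted p = 0.0605) and 0.29 with the covariate for low-quality reads (adjusted p = 0.938), a division that coincides with genotype among these mice. It also lost the threshold without the WT CORT mice H8, H10 or H11 or the AS CORT mice H20 or H24, each left out alone, with adjusted p up to 0.108. In the same contrast, 4 of 8 genes of the oligodendrocyte lineage were lower in AS mice (Cspg4, Gpr17, Sox10 and Olig1, list median -0.36, 8 of 8 below 0), as were 3 of 8 interneuron genes (Lamp5, Npy and Cck, median -0.29) and 2 of 6 thalamus markers (Lef1 and Tcf7l2, median -0.69). Lef1, in the thalamus list, is also expressed in endothelial cells. Of 14 other genes of immature neurons, 1 was higher, Stmn1, and 0 lower (median -0.03). In the remaining lists, 1 of 11 progenitor genes was higher and 1 lower, 1 of 7 proliferation genes was higher, 0 of 8 mature granule cell genes and 0 of 2 choroid plexus genes passed, and lower calls numbered 2 of 8 for pyramidal and mossy neurons, 1 of 4 for Cajal-Retzius cells, 1 of 6 for subventricular neuroblasts, 2 of 6 for endothelium, 1 of 4 for ependyma and 2 of 5 for striatum, where 1 was higher. Genes named here outside the 4 per list were named after their values were seen, and the part of these cell types and regions in the Dcx difference was not tested.

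After continuous exposure, Dcx was at 10.7, 11.9, 10.7 and 12.4 CPM in WT vehicle mice and at 8.68, 12.7, 8.50, 9.59 and 8.39 CPM in WT CORT mice. H5, at 12.7 CPM, was the WT CORT mouse above all WT vehicle mice, while the other 4 lay below them. AS vehicle mice had 11.5, 12.5, 15.4 and 11.4 CPM and AS CORT mice 11.7, 10.9, 10.6, 12.3 and 11.8 CPM, with overlap. The averaged change was -0.20 ± 0.08 (95% interval -0.38 to -0.03, adjusted p = 0.142). It passed with limma (-0.21, adjusted p = 0.0494), which called 3 members, and not with DESeq2 (adjusted p = 0.130). Without H5 Dcx passed this test, with an adjusted p of 0.0155, and Sox4 and Igfbpl1 did not.

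Neurod1 had an estimate below 0 for AS against WT mice in each of the 4 genotype contrasts, close to 0 with acute CORT, and none passed the test. It lies at chr2:79452521-79456751. After injection it ranged from 29.3 to 43.2 CPM (median 35.7) in WT vehicle mice and from 25.2 to 31.8 CPM (median 28.7) in AS vehicle mice, and the ranges overlapped. The difference was -0.35 ± 0.10 on the log2 scale (95% interval -0.55 to -0.15, adjusted p = 0.144). With CORT, WT mice ranged from 27.8 to 42.8 CPM (median 33.3) and AS mice from 28.2 to 38.3 CPM (median 34.0), a difference of -0.01 ± 0.10. The interaction was 0.34 ± 0.14 (adjusted p = 0.135), and it passed under limma (adjusted p = 0.0171) or without the WT CORT mouse H8 (adjusted p = 0.0353). It was 0.24 after correction for GC content and gene length (adjusted p = 0.353). With the covariate for low-quality reads it was 0.38 (adjusted p = 0.891). After continuous exposure, Neurod1 was at 18.6, 25.1, 21.97 and 16.5 CPM in WT vehicle, and at 15.1, 14.1, 22.6 and 14.6 CPM in AS vehicle mice. With CORT the WT mice had 27.2, 21.7, 20.8, 17.6 and 22.9 CPM and the AS mice 15.5, 16.2, 18.8, 15.1 and 16.5 CPM. All AS CORT mice but H10 lay below all WT CORT mice. The genotype difference was -0.31 ± 0.15 with vehicle (adjusted p = 0.679) and -0.43 ± 0.14 with CORT (adjusted p = 0.351).

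Markers of mature granule cells, which also express Neurod1, lay on the same side as Neurod1 in several of these contrasts. Between genotypes with vehicle, 8 of 8 had an estimate below 0, with a median log2 fold change of -0.30 in the acute and -0.37 in the continuous cohort, and 8 of 8 were below 0 with continuous CORT (median -0.56). With acute CORT, 0 of 8 were below 0 between genotypes (median 0.33) and 0 of 8 for the interaction (median 0.63). No gene of this list passed in these 5 contrasts. For acute CORT in AS mice, where Neurod1 was at 0.21 ± 0.10 (adjusted p = 0.122), Dsp, Calb1 and C1ql3 rose, 3 of 8 against 17.9% of all genes. These 3 were not fitted with the covariate for low-quality reads, a division that largely coincides with treatment in AS mice. The part of mature granule cells in the Neurod1 differences was not tested.

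For the genotype contrasts with vehicle, edgeR called 0 of 8 members in the acute cohort, where 0.157% of all genes were called, and 0 of 7 in the continuous cohort, where 0.0134% were called. At an unadjusted p under 0.05 there was 1 member in the acute cohort (Neurod1) and 0 in the continuous cohort, and DESeq2 and limma called 0 in both. With continuous CORT, edgeR called 0 of 7 members between genotypes (background 0.0401%), with 3 at an unadjusted p under 0.05 (Dcx, Neurod1 and Sox4) and 0 by DESeq2 and limma. The interaction of genotype and CORT called 0 of 7 members in the acute cohort (background 4.49%), with 1 at an unadjusted p under 0.05, 0 by DESeq2 and 1 by limma (Neurod1). In the continuous cohort it called 0 of 7 (background 0%), with 0 at an unadjusted p under 0.05 and 0 by DESeq2 and limma.

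Sox11, the other SoxC factor, lies at chr12:27334264-27342574 and passed the test in no comparison with all mice of the fit. After continuous exposure it was at 11.5, 14.1, 12.97 and 12.7 CPM in WT vehicle and at 13.5, 12.2, 12.8, 12.4 and 13.3 CPM in WT CORT mice, a change of 0.00 ± 0.12 (95% interval -0.25 to 0.25). AS vehicle mice had 9.97, 14.3, 16.4 and 13.2 CPM and AS CORT mice 10.7, 9.56, 9.27, 12.9 and 12.2 CPM, a change of -0.31 ± 0.12 (adjusted p = 0.204). Without the AS vehicle mouse H2, the lowest of its group, Sox11 and Igfbpl1 passed the test in AS mice. The interaction for Sox11 was -0.31 (95% interval -0.67 to 0.05, adjusted p = 1). After acute CORT, Sox11 ranged from 8.36 to 19.2 CPM over all mice, and its averaged change was -0.04 ± 0.11 (adjusted p = 0.880).

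Draxin, which encodes a secreted repulsive guidance cue for growing axons, lies at chr4:148098437-148130698 and had estimates below 0 in every CORT contrast. With pellets it was at 1.48, 1.23, 1.16 and 1.499 CPM in WT vehicle and at 0.840, 0.609, 1.16, 1.49 and 1.12 CPM in WT CORT mice. AS vehicle mice had 0.792, 2.40, 1.198 and 2.47 CPM and AS CORT mice 1.18, 0.856, 0.937, 1.95 and 1.03 CPM. Both pairs of groups overlapped, and the averaged change was -0.44 ± 0.23 (95% interval -0.92 to 0.03, adjusted p = 0.265). After acute CORT it was -0.17 ± 0.17 (adjusted p = 0.619).

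Eomes, the marker of intermediate progenitors, lies at chr9:118478212-118486132 and was close to the limit of detection. After injection it had 1 to 37 counts per library and a median of 0.798 CPM, and it passed the filter only through the WT CORT group. That group is one side of the CORT contrast, so its CORT estimates, which appear in the plot of CORT effects and among the recomputed values, support nothing here. Levels ranged from 0.0978 to 0.968 CPM (median 0.720) in WT vehicle, 0.0490 to 1.06 CPM (median 1.01) in WT CORT, 0.395 to 1.79 CPM (median 0.733) in AS vehicle and 0.652 to 1.19 CPM (median 0.890) in AS CORT mice, and all these ranges overlapped. With pellets it had 0 to 18 counts per library. WT vehicle mice had 0.231, 0.502, 0.318 and 0.454 CPM and WT CORT mice 0.0933, 0, 0.371, 0.279 and 0.187 CPM. AS vehicle mice had 0.233, 0.231, 0.829 and 0.274 CPM and AS CORT mice 0.0946, 0.285, 0.140, 0.139 and 0.234 CPM. Group means were 0.376 ± 0.124 (SD, n = 4) and 0.186 ± 0.147 CPM (n = 5) in WT mice with vehicle and CORT, and 0.392 ± 0.292 (n = 4) and 0.179 ± 0.0782 CPM (n = 5) in AS mice. The CORT means were the lower ones in both genotypes, and 5 of 5 WT CORT and 4 of 5 AS CORT mice lay below the median of their vehicle group, with overlapping ranges. The AS vehicle mean was raised by H14 at 0.829 CPM. The rest of that group lay at 0.231 to 0.274 CPM, within the AS CORT range. These counts fell below the filter, so the difference was not tested.

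Calb2 varied more between mice than any other member tested in the continuous cohort. It encodes the calcium-binding protein calretinin and lies at chr8:110137502-110168210. WT vehicle mice had 24.6, 115, 35.7 and 24.5 CPM and WT CORT mice 26.5, 66.9, 11.9, 16.7 and 19.2 CPM. AS vehicle mice had 46.8, 12.1, 102 and 27.6 CPM and AS CORT mice 6.48, 48.0, 33.1, 10.8 and 28.5 CPM. The levels differed by up to 17.7-fold between mice, and all pairs of groups overlapped. The averaged CORT change was -0.86 ± 0.45 (95% interval -1.81 to 0.09, adjusted p = 0.283), and it was -0.09 without H4 and H14, the pair of vehicle mice with the highest Calb2, an alternative chosen after seeing the data. Calb2 ranged from 7.45 to 30.4 CPM in the acute cohort, where its averaged CORT change was 0.18 ± 0.20 (adjusted p = 0.646). Calb2 is also expressed in the thalamus. H14 and H4 had 194 and 90.7 CPM of 6 thalamus markers, the highest sums among the libraries in the fit, but H5, with 66.9 CPM of Calb2, had 30.6 CPM. H9, with 1637 CPM of thalamus markers, had 28.6 CPM of Calb2. The part of thalamus tissue in the Calb2 levels was not tested.

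**Figure D3:**
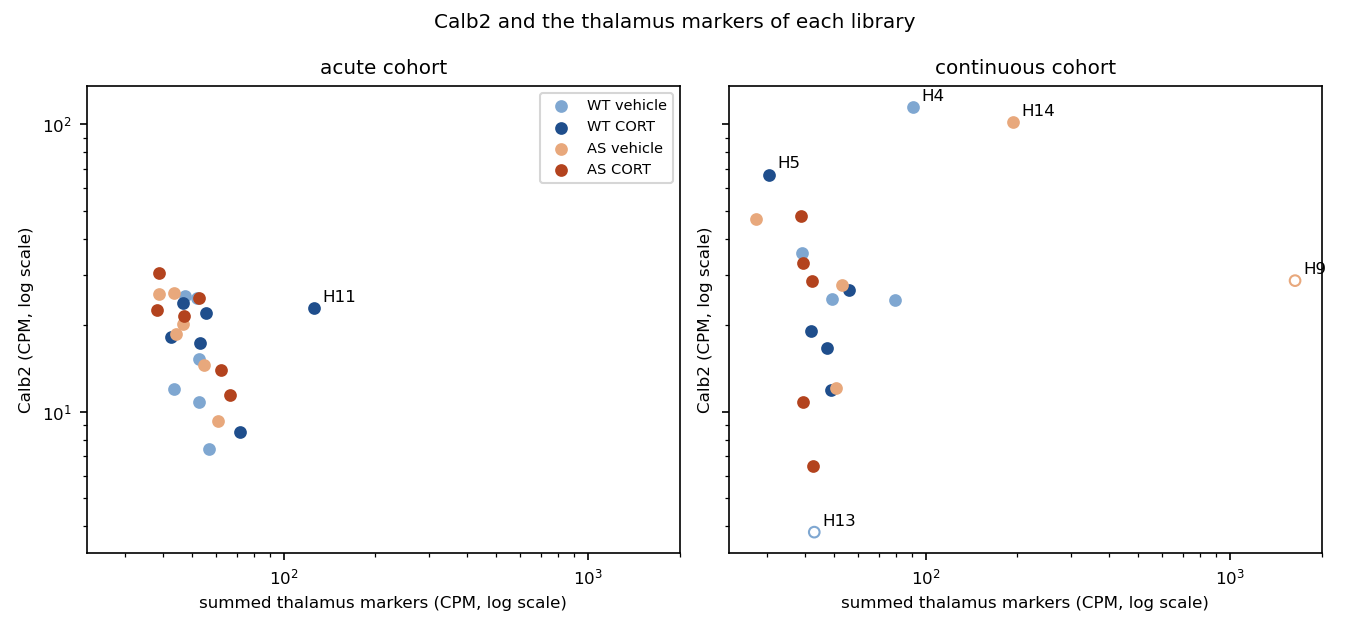
Calb2 against the sum of 6 thalamus markers in every hippocampal library (both in CPM on log axes), with open points for H9 and H13. H4 and H14 are high on both axes, whereas H5 reaches 66.9 CPM of Calb2 with 30.6 CPM of thalamus markers.

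Single libraries had few counts of particular members. The acute WT CORT mouse H7 had 3 counts of Igfbpl1 (0.147 CPM, against 1.27 to 4.73 CPM in the other 5 mice of its group), 1 count of Eomes (0.0490 CPM, against 0.636 to 1.06 CPM) and 12 counts of Draxin (0.588 CPM, against 1.65 to 3.37 CPM). Its ratio to those 5 mice was 0.0563 for Igfbpl1 (95% counting interval 0.0115 to 0.166), 0.0515 for Eomes (0.00129 to 0.294) and 0.237 for Draxin (0.121 to 0.422). Dcx (7.70 CPM) and Sox4 (22.9 CPM) of this mouse lay within the range of the other 5. Neurod1, at 27.8 CPM, lay just below their range. Without H7, the acute CORT effect in WT mice was 0.07 for Igfbpl1 in place of -0.17 and 0.12 for Draxin in place of -0.07, and neither passed the test with or without it. The WT vehicle mouse H6 had 2 counts of Eomes, a ratio of 0.124 to the rest of its group (0.0148 to 0.463), and 1068 CPM of the choroid plexus markers, the highest sum of that cohort.

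The library H13 of the continuous cohort, left out of the fits, had 11 counts of Neurod1 (0.488 CPM, against 16.5 to 25.1 CPM in the other WT vehicle mice) but 17.2 CPM of Dcx and 20.7 CPM of Sox11, above all other libraries of its cohort. H9 had 3.55 CPM of Neurod1. The 8 markers of mature granule cells summed to 140 CPM in H13 and to 182 CPM in H9, below the 345 to 891 CPM of the libraries in the fit. With all 20 mice, neither Sox4 (-0.29, adjusted p = 0.0569) nor Igfbpl1 (-0.64, adjusted p = 0.107) passed for continuous CORT.

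**Figure D4:**
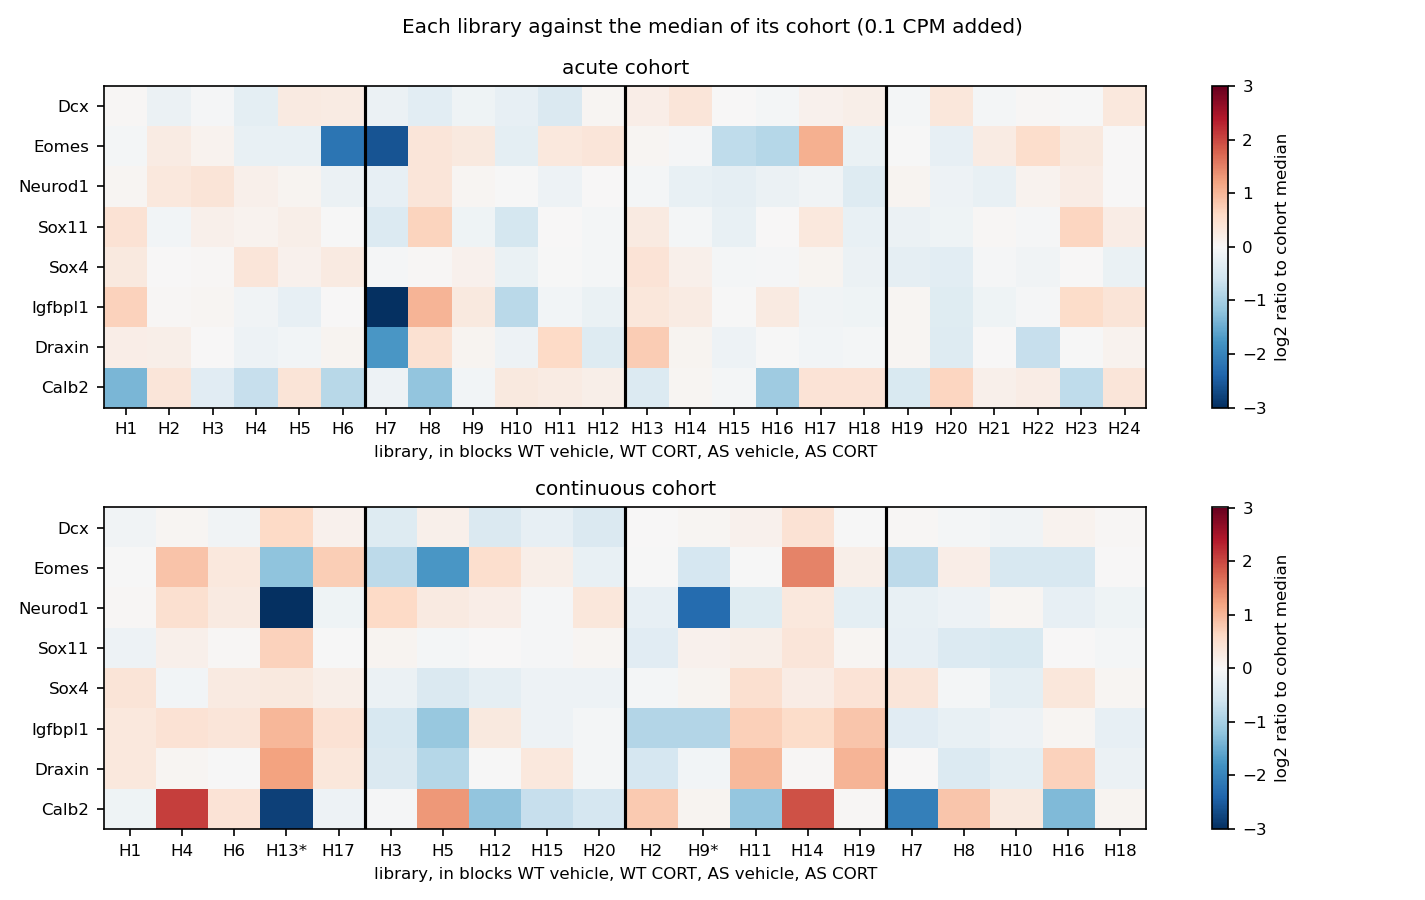
Log2 ratio of each gene in each library to its median over the libraries in the fit of its cohort, after adding 0.1 CPM, with libraries in blocks by group and an asterisk on H9 and H13. Acute H7 is low for Eomes, Igfbpl1 and Draxin, and continuous H13 is low for Neurod1 and Calb2 while high for Dcx and Sox11.

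Levels can be compared between genes only per length of exon sequence. In the acute cohort, Neurod1 (12.1 ± 1.78 CPM per kb, SD over 24 mice) and Calb2 (10.7 ± 3.73) were highest and did not differ beyond their spread. They were followed by Sox4 (4.98 ± 0.665) and Sox11 (1.52 ± 0.321). Igfbpl1 (0.743 ± 0.265) and Dcx (0.696 ± 0.105) again overlapped, ahead of Draxin (0.426 ± 0.121) and Eomes (0.192 ± 0.0857). In the continuous cohort, Calb2 (20.9 ± 17.3) and Neurod1 (6.94 ± 1.44) were again the highest, and Eomes (0.0655 ± 0.0450, 18 mice) the lowest. The cohorts were normalized separately, and no test was made between them. In the 20 livers, Neurod1 had 0 counts in every library, the other members apart from Sox4 had at most 4 counts, and Sox4 ranged from 0.416 to 2.41 CPM.

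Members did not vary as one group between mice of the same group. Igfbpl1 and Draxin varied most alike, with a Pearson r of 0.84 over 24 acute and 0.78 over 18 continuous libraries after subtraction of group means (Spearman 0.65 and 0.69). Without the 2 libraries farthest from the median of Igfbpl1, r was 0.54 and 0.59. The genes outside the list whose log2 CPM followed Dcx most closely in both cohorts were Ptger3 (r = 0.74 and 0.68), Lmbrd1 (0.66 and 0.67), Atp8a2 (0.63 and 0.67), Dzank1 (0.63 and 0.67) and A330076H08Rik (0.67 and 0.62). In the continuous cohort, without the 2 libraries farthest from the median of Dcx, r fell to 0.12 for Ptger3, 0.16 for Atp8a2 and 0.17 for Dzank1 and was 0.46 for Lmbrd1 and 0.43 for A330076H08Rik. Of the members, Calb2 ranked highest by this measure, at 886 of 14418 genes. These are descriptions over libraries that share tissue composition, with no test.

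Some genes listed for neural stem cells, early progenitors and proliferation were also lower after continuous CORT. Of 11 tested genes of neural stem cells and early progenitors, 4 fell and 1 rose, with a median log2 fold change of -0.22, where 9.67% of all genes were called and 5.48% called lower. The 4 were Nes, which encodes the intermediate filament nestin (-0.77 ± 0.10, adjusted p = 4.58e-05), Hopx (-0.60 ± 0.06, adjusted p = 3.11e-06), and the transcription factors Rfx4 (-0.38 ± 0.07, adjusted p = 0.00245) and Pax6 (-0.29 ± 0.08, adjusted p = 0.0183). The gene that rose was Thrsp, named after its values were seen. Hopx, Rfx4 and Pax6 are also expressed in astrocytes. The cells in which these 4 genes and the proliferation genes below fell were not identified. Of 6 tested proliferation genes, 3 fell and 0 rose, namely Cenpf (-0.99 ± 0.19), the kinesin-associated Prc1 (-0.71 ± 0.20) and the topoisomerase Top2a (-1.16 ± 0.35), with adjusted p of 0.00233, 0.0323 and 0.0391. Of 14 other genes of immature neurons, 1 rose, Dpysl5 (0.21 ± 0.06, adjusted p = 0.0180), and 0 fell. Nnat (-0.54 ± 0.18, adjusted p = 0.0634) and St8sia2, which makes polysialic acid on NCAM (-0.35 ± 0.13, adjusted p = 0.112), did not pass. Of 8 genes of mature granule cells, Calb1 rose (0.29 ± 0.09, adjusted p = 0.0462) and 0 fell.

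Some markers of other cell types and regions passed in the same comparison, to be read against the 9.67% of all genes called and the 5.48% called lower. In oligodendrocyte precursors and newly formed oligodendrocytes, 3 of 8 genes fell and 0 rose, and they were Gpr17 (-0.95 ± 0.07), Bmp4 (-1.25 ± 0.22) and Enpp6 (-1.16 ± 0.28). Of 6 thalamus markers 3 fell, Tnnt1, Lef1 and Tcf7l2 (-1.81, -0.72 and -2.11), of which Lef1 is also expressed in endothelial cells. The summed thalamus level was 27.6 to 194 CPM in vehicle and 30.6 to 55.9 CPM in CORT mice. Endothelial genes fell for 2 of 6, Cdh5 and Cldn5, Cajal-Retzius genes for 1 of 4, Ebf3, and interneuron genes rose for 2 of 8, Lamp5 and Vip. The pyramidal and mossy neuron list had 1 of 8 higher, Spink8. None of 6 genes of subventricular neuroblasts, 4 of choroid plexus, 6 of ependyma or 5 of striatum passed for the average. In WT mice alone, where 2.92% of all genes were called, 2 of 4 choroid plexus genes were lower with CORT, Ttr (-4.57 ± 1.22, adjusted p = 0.0484) and Folr1 (-3.35 ± 0.79, adjusted p = 0.0253). The choroid plexus list median was -2.52, against 0.27 in AS mice. Also lower in WT mice were 3 of 11 progenitor genes and 1 of 6 proliferation genes. So were 2 of 8 genes of the oligodendrocyte lineage and 1 of 6 endothelial genes, while 1 of 8 interneuron genes rose. No gene passed in the other lists. In AS mice (background 3.77%) lower calls in these 4 lists numbered 2 of 11, 0 of 6, 1 of 8 and 1 of 6. There, 2 of 8 interneuron genes and 1 of 8 genes of pyramidal and mossy neurons rose. The summed choroid plexus level ranged from 77.4 to 2901 CPM in vehicle and from 36.8 to 503 CPM in CORT mice. The part of these cell types and regions in the decrease of Sox4 and Igfbpl1 was not tested.

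After acute CORT, where 7.02% of all genes were called and 3.5% called lower, 5 of 11 genes of neural stem cells and early progenitors fell and 1 rose, with Rfx4 at -0.46 ± 0.07 and Pax6 at -0.34 ± 0.06 (adjusted p = 9.69e-05 and 0.000206), whereas Hopx (-0.02 ± 0.07) and Nes (-0.19 ± 0.08, adjusted p = 0.190) did not pass. None of 7 proliferation genes passed for the average. Of 14 other genes of immature neurons, Dpysl5 (0.28 ± 0.05) and Tubb2b (0.24 ± 0.06) rose and St8sia2 fell (-0.61 ± 0.14, adjusted p = 0.00448). In the other lists, the genes that passed for the average were Lamp5 (1 of 8 interneuron genes), Sox10 and Neu4 (2 of 8 in the oligodendrocyte lineage, 1 lower and 1 higher), Ly6c1 (1 of 6 endothelial genes, higher), Lef1 (1 of 6 thalamus markers, lower) and Adora2a (1 of 5 striatum markers, lower). None passed for mature granule cells, pyramidal and mossy neurons, Cajal-Retzius cells, subventricular neuroblasts, choroid plexus or ependyma. Lef1, also expressed in endothelial cells, was the 1 of 6 thalamus markers below 0, where the list median was 0.23. In AS mice alone, 17.9% of all genes were called, and treatment largely coincides with the division by low-quality reads. The marker genes were not fitted with the covariate for it. Of 11 progenitor genes, 5 were lower and 1 higher. Beside the 3 granule cell genes given above, Pcna (proliferation), Dpysl5 and Tubb2b (immature neurons), Lamp5 and Ly6c1 were higher. St8sia2 and Cd24a (immature neurons), Dlx2 and Dlx5 (2 of 6 subventricular neuroblast genes), Sox10 and Cspg4 (2 of 8 in the oligodendrocyte lineage), Cldn5 (endothelium), Foxj1 (1 of 4 ependyma genes), Lef1 and Adora2a were lower. In WT mice alone, where 1.48% were called, Pax6 and Sox2 were lower and Dpysl5 and Ly6c1 higher. Those outside the 4 genes per list chosen by adjusted p were named after their values were seen.

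**Figure D5:**
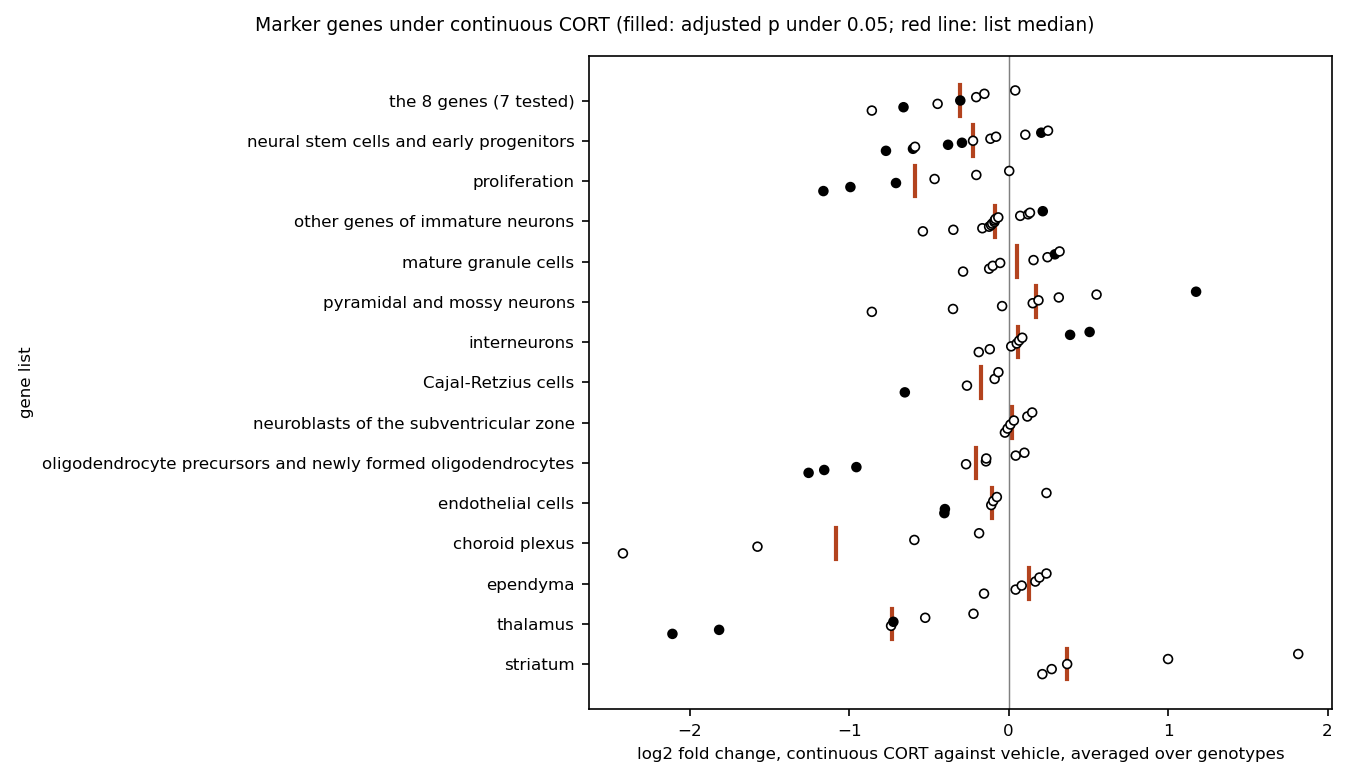
Log2 fold change for continuous CORT against vehicle, averaged over genotypes, of each tested gene in the list of members and in 14 marker lists. Filled points passed the test at an adjusted p under 0.05 and red lines are list medians, which lie at -0.30 for the members, -0.22 for progenitor genes and -0.58 for proliferation genes.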

How the data were processed

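Hippocampal RNA-seq of 24 acute and 20 continuous mice was used. The 20 livers gave levels of the members and entered no test. Per the labels and methods, the authors aligned reads to mm10 with STAR and deposited HTSeq read counts per gene, without normalization or pooling. The libraries were stranded, but the annotation release and the strand setting of the counting are not given in the sources used here. Counts of Sox4, Neurod1 and Eomes, whose exons overlap other genes, are therefore less certain. Reads on no gene (14.4% acute, 12.2% continuous) were left out. Of the columns, 0 belonged to no sample. Symbols and positions came from GENCODE M21 on GRCm38.

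Genes with more than 20 median-of-ratios normalized counts in 3 or more mice of any group were tested with edgeR 4.0.16 (quasi-likelihood F test, R 4.3.3, TMM, 4 groups in 1 fit), with Benjamini-Hochberg adjustment over all genes tested and a threshold of 0.05. H9 and H13 of the continuous cohort were left out, so WT vehicle and AS vehicle had 4 mice. Alternatives were DESeq2 1.42.0, limma-voom 3.58.1, other size factors, no filter, fits of 2 groups, removal of GC content and length trends, a threshold of 0.01, a covariate for low-quality reads or 1 side of their division, all 20 mice and each mouse left out. The absence of H4 and H14 was added after seeing the data. Within each hippocampal group no library was a duplicate of another, since counts of every pair differed by at least 5.29 times the sampling variance. Pairs from different groups and the livers were not compared.

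The members, the marker lists and the tests were chosen with earlier results of these data known. All members are named, with at most 4 genes per marker list by adjusted p for continuous CORT averaged over genotypes, the 5 genes most like Dcx, and Fkbp5, Tsc22d3 and Ube3a as checks. The fit was tested on simulated data.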

Additional observations from a re-analysis of the deposited data

Results flagged for a closer look

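Of 64 sets of values (8 genes in 4 groups of 2 cohorts), 10 held a library far from the rest of its group by the gap test for outliers, which chance alone flags in about 1 of 20 groups. In the acute cohort these were Eomes in the WT vehicle mouse H6 (0.0978 CPM, against 0.670 to 0.968 CPM) and in the AS vehicle mouse H17 (1.79 CPM, against 0.395 to 0.828 CPM), Sox11 in the WT CORT mouse H8 (19.2 CPM, against 8.36 to 12.1 CPM), Igfbpl1 in the WT vehicle mouse H1 (3.77 CPM, against 1.91 to 2.40 CPM) and Draxin in the AS vehicle mouse H13 (3.80 CPM, against 1.98 to 2.34 CPM). In the continuous cohort they were Dcx in the WT CORT mouse H5 (12.7 CPM, against 8.39 to 9.59 CPM), Eomes and Neurod1 in the AS vehicle mouse H14 (0.829 CPM, against 0.231 to 0.274 CPM, and 22.6 CPM, against 14.1 to 15.1 CPM), and Calb2 in the WT vehicle mouse H4 (115 CPM, against 24.5 to 35.7 CPM) and in the WT CORT mouse H5 (66.9 CPM, against 11.9 to 26.5 CPM).

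H14 also had the highest Dcx (15.4 CPM) and Sox11 (16.4 CPM) of the libraries in the fit of its cohort. The cause of these differences was not tested.

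In the liver, which entered no test between groups, Sox4 was detected in all 20 libraries, up to 2.41 CPM, above the floor of 3 counts.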

How the results depend on the processing

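Groups held 4 to 6 mice, and the members had 0 to 900 counts except Calb2. The calls of the continuous cohort lay close to 0.05, and the acute genotype contrast with CORT coincides with the division by low-quality reads. No paired analysis was possible because the groups compared within a cohort share no animal number, and the causes of the changes below were not tested.

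Of 2754 values of single members recomputed, 48 lost the threshold, 14 gained it and 138 changed sign, the last all without passing in either fit. The number of members called for acute CORT averaged over genotypes (1) was 0 with the low-quality-read covariate and 0 at a threshold of 0.01. For acute CORT in AS mice (0) it was 1 with DESeq2 and 1 with limma (Sox4), and 0 to 1 without single mice. For acute genotype with CORT (1) it was 0 without a filter, 0 without GC content and length trends, 0 at 0.01, 0 with the covariate, and 0 to 1 without single mice. For the acute interaction (0) it was 1 with limma and 0 to 1 without single mice. For continuous CORT averaged over genotypes (2) it was 1 without a filter, 0 at 0.01, 0 with all 20 mice, 1 without H4 and H14, 3 with limma, which added Dcx, and 0 to 2 without single mice. For continuous CORT in WT mice (0) it was 1 with DESeq2 and 1 without H4 and H14 (Sox4), and 0 to 1 without single mice, and in AS mice (0) it was 0 to 2 without single mice. In fits restricted to 2 groups, averages and interactions could not be made, nor could genotype with CORT within 1 side of the division.

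The log2 fold changes that changed sign follow. With limma, they were for acute CORT in WT mice Eomes -0.23, for acute genotype with CORT Neurod1 0.041 and Draxin 0.27, for acute interaction Eomes 0.61 and Draxin 0.17, for continuous CORT in AS mice Neurod1 0.11, for continuous genotype with CORT Calb2 0.15, for continuous interaction Calb2 0.52. Without GC content and length trends, they were for acute CORT in AS mice Igfbpl1 0.081, for acute CORT averaged over genotypes Sox11 0.00056, for acute interaction Sox4 0.0043. With the low-quality-read covariate, they were for acute CORT in AS mice Eomes -0.46, Igfbpl1 0.23 and Calb2 -0.31, for acute CORT averaged over genotypes Eomes -0.10, Igfbpl1 0.029 and Calb2 -0.035, for acute genotype with vehicle Eomes -0.14 and Calb2 -0.029, for acute genotype with CORT Eomes -0.84, Neurod1 0.056, Sox4 0.050, Draxin 0.20 and Calb2 -0.58, for acute interaction Sox4 0.11 and Draxin 0.019. On 1 side of the low-quality-read division, they were for acute CORT in AS mice Eomes -0.46, Igfbpl1 0.23 and Calb2 -0.31, for acute genotype with vehicle Eomes -0.14 and Calb2 -0.031. With upper-quartile normalization, they were for acute genotype with CORT Neurod1 0.0017, for continuous CORT in WT mice Sox11 -0.011. With all 20 mice, they were for continuous CORT in WT mice Sox11 -0.16, for continuous CORT in AS mice Neurod1 0.23, for continuous genotype with vehicle Dcx -0.0092, Sox11 -0.085, Igfbpl1 -0.28, Draxin -0.049 and Calb2 0.092, for continuous interaction Igfbpl1 0.34 and Draxin 0.24. Without H4 and H14, they were for continuous CORT in WT mice Calb2 0.0037, for continuous CORT in AS mice Neurod1 0.17, for continuous genotype with vehicle Calb2 0.031, for continuous interaction Igfbpl1 0.017.

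Among fits without 1 mouse, 92 values changed sign. For acute CORT in WT mice the values ran from -0.55 to 0.072 for Igfbpl1 and from -0.24 to 0.12 for Draxin. For acute CORT in AS mice the values ran from -0.12 to 0.078 for Igfbpl1, from -0.090 to 0.010 for Dcx, from -0.010 to 0.51 for Eomes, from -0.011 to 0.25 for Calb2 and from -0.042 to 0.14 for Sox11. For acute CORT averaged over genotypes the values ran from -0.28 to 0.034 for Igfbpl1 and from -0.13 to 0.0040 for Sox11. For acute genotype with vehicle the values ran from -0.053 to 0.17 for Igfbpl1, from -0.088 to 0.14 for Draxin and from -0.10 to 0.43 for Eomes. For acute genotype with CORT the values ran from -0.076 to 0.27 for Eomes, from -0.067 to 0.56 for Igfbpl1, from -0.059 to 0.071 for Neurod1, from -0.29 to 0.062 for Draxin and from -0.0053 to 0.27 for Calb2. For acute interaction the values ran from -0.29 to 0.040 for Calb2, from -0.074 to 0.061 for Sox4, from -0.36 to 0.26 for Eomes and from -0.075 to 0.55 for Igfbpl1. For continuous CORT in WT mice the values ran from -0.047 to 0.057 for Sox11 and from -1.43 to 0.0034 for Calb2. For continuous CORT in AS mice the values ran from -0.090 to 0.17 for Neurod1. For continuous CORT averaged over genotypes the values ran from -0.0033 to 0.13 for Neurod1. For continuous genotype with vehicle the values ran from -0.79 to 0.74 for Calb2, from -0.092 to 0.35 for Igfbpl1 and from -0.034 to 0.20 for Sox11. For continuous genotype with CORT the values ran from -0.11 to 0.24 for Igfbpl1, from -0.52 to 0.45 for Calb2 and from -0.061 to 0.35 for Draxin. For continuous interaction the values ran from -0.28 to 0.17 for Igfbpl1, from -0.90 to 0.64 for Calb2, from -0.41 to 0.067 for Draxin and from -0.23 to 0.065 for Neurod1.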
